A study of Mus musculus with 6 samples.

Results

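Cytosolic ribosomal protein genes were taken by their symbols: names of the form Rpl or Rps followed by a number and at most one of the letters a, x or y, the P-stalk genes Rplp0, Rplp1 and Rplp2, and Rpsa. The rule found 76 of the 20173 genes in the table, 46 of the large subunit and 30 of the small subunit. RNA-Seq counts came from 6 libraries. In 3 of them the cells were from Slit2fl/fl mice, labelled SLIT2f/f, which carry loxP-flanked Slit2 alleles. The other 3 were from Slit2th mice, labelled SLIT2-knockout, in which the same floxed alleles are deleted by Cre under the tyrosine hydroxylase (Th) promoter. Both groups were male and 3 weeks old, and by the paper's methods sympathetic chains were cultured for 4 to 5 days in B27 medium. The labels give sympathetic ganglion as the tissue and neuron as the cell type, while the paper's account of the dissection mentions dorsal root neurons, which leaves the source uncertain. The deletion acts only in cells that have expressed Th, and how many animals went into a library is not given.

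Ribosomal proteins coat and hold together the ribosomal RNAs of the small subunit, which reads the mRNA, and of the large subunit, which joins amino acids. The finished ribosome holds them in fixed proportions, and many of their mRNAs are known to begin with a run of C and T letters, the 5′ terminal oligopyrimidine (TOP) motif, through which mTOR signalling sets their translation. In neurons, ribosomes are found in the cell body and in axons, where they supply local protein synthesis. The comparison asked whether loss of Slit2, a secreted axon guidance ligand, went with a difference in this gene family.

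Total counts were 1255939 to 3155406 per library, so that 3 counts, taken as the floor of detection, were 0.951 to 2.39 CPM, the library-scaled unit used here. That floor reflects counting error alone. The share of counts on mitochondrially encoded genes was 4.68% in Slit2fl/fl replicate 1 and 11.1% to 14.0% in the other libraries. Slit2 had 139, 85 and 77 counts in Slit2fl/fl, against 17, 24 and 27 in Slit2th, so no library went against its genotype label. Th, the defining marker of the labelled neurons and the driver of the Cre, was at 0 counts in every library, and 5 of the 22 sympathetic neuron markers in the table were high enough to be tested. Of those, 4 had a lower value in Slit2th. The neuron markers summed to 586.9, 202.8 and 208.5 CPM in Slit2fl/fl, against 183.9, 228.6 and 213.8 CPM in Slit2th, so Slit2fl/fl replicate 1 stood above all other libraries. Summed glia markers were 6108 to 11990 CPM in Slit2fl/fl and 14370 to 18440 CPM in Slit2th. Fibroblast markers summed to 2836 to 4020 and 3609 to 5964 CPM, macrophage markers to 33.9 to 128 and 137 to 608 CPM, and proliferation markers to 429 to 583 and 193 to 420 CPM. Values were higher in Slit2th for 11 of 11 tested macrophage markers and 13 of 16 tested fibroblast markers, and lower for 11 of 17 tested glia markers. Of the macrophage markers, Mrc1, Itgam and Ptprc reached 1 CPM in 3 libraries only through Slit2th. Prx, of the glia markers, did so only through Slit2fl/fl. For those genes the direction followed from the filter, and their values lay mostly near the floor. Among endothelial markers, 4 of 10 could be tested. Among tested proliferation markers, 15 of 16 had a lower value in Slit2th and 5 were lower at an unadjusted p under 0.05. Of all tested genes, 6.78% were lower at that threshold. In these mixed cultures, fewer cells of a type and less RNA per cell cannot be told apart, and the part of cell composition in the results below was not tested.

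The start regions of the family differed in whether a run of C and T letters lay near the annotated start. RefSeq promoter sequences of GRCm38.p6 were found for 56 of the 76 genes. A run of at least 7 C or T letters overlapped the window of 20 bases either side of the RefSeq start in 33 of the 56 (58.9%), against 28.5% of all 14336 promoters in the RefSeq set. The longest run had a median of 9 letters in the ribosomal protein genes and of 5 in the other promoters. A run is a description. Neither its presence nor its absence says where transcription began in these cells, or whether the mRNA begins with a TOP motif.

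Sense-strand windows of 30 bases around that run are shown for 7 genes: the 5 with a promoter entry that were lower in Slit2th at an unadjusted p under 0.05, and the 2 large subunit genes with the highest positive difference. Capitals mark the longest C/T run where it has at least 7 letters, and a window without capitals holds no run of that length. The Rpl31 window ends in another run of at least 7 letters, left in lower case.
Rps25 (chr9:44407684-44407713, plus strand): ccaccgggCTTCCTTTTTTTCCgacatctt
Rps6 (chr4:86857349-86857378, minus strand): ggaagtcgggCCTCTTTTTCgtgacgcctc
Rpl34 (chr3:130730330-130730359, minus strand): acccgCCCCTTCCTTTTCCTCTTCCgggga
Rpl37 (chr15:5116588-5116617, plus strand): cgccggaagtagtttcctgggcggaagctt
Rpl35a (chr16:33056437-33056466, plus strand): ggcggggcgtgcgtcccacaaggccgcgcg
Rpl39 (chrX:37085225-37085254, minus strand): cgagtcatccaTCCCCCCCTaagctccgcc
Rpl31 (chr1:39367824-39367853, plus strand): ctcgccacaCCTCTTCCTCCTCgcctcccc
Rps25, Rps6 and Rpl34 carried the run and Rpl37 and Rpl35a did not, while Rpl39 and Rpl31, on the other side of the comparison, both carried it. These 7 genes were picked by their differences, and 33 of all 56 promoters held a run. Whether the run goes with the difference between the groups was not tested.

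Other letters were counted on both strands of the 300 bases from 250 before to 50 after the start. CCGGAA, the core bound by ETS factors such as GABPA, was in 29 of the 56 promoters (51.8%) and in 23.3% of all 14336 matched promoters. TATAA was in 15 (26.8% against 16.6%), and AAGATGGC, the core of the YY1 motif, in 4 (7.14% against 3.80%). GGGCGG, the Sp1 core, was in 58.9% against 56.1%, and the E-box CACGTG, bound by Myc, in 8.93% against 9.10%. No motif in this set contains another. Of them, CCGGAA stood furthest above its share in all promoters.

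All 76 genes were expressed. Each had over 3 counts in every library, the lowest count being 20, and each passed the filter of 1 CPM in at least 3 libraries. Their mean level had a median of 432 CPM, against 16.6 CPM for all 12152 genes tested, and each of the 76 lay above that second value. Divided by transcript length, the mean level ran from 94.0 CPM per kilobase for Rps6 to 3330 CPM per kilobase for Rps27. In the large subunit high per-length levels belonged to Rpl30 (2851 CPM per kilobase), Rpl38 (2259), Rpl39 (2056) and Rpl36a (1751), and the lowest to Rpl7a (99.6). In the small subunit Rps27 was followed by Rps14 (2138 CPM per kilobase), Rps27a (1700), which is made as a fusion with ubiquitin, Rps29 (1653) and Rps12 (1315), with Rps3 (96.1) next to the lowest. The median transcript of the family was 777.5 bases long, against 2498 bases for all genes of the table. Lengths are those of 1 annotated transcript per gene, and the order per kilobase depends on that choice. Rps15a, at a mean of 2291 CPM, was taken as 5179 bases long, which put it at 442 CPM per kilobase. Rps3 was taken as 1908 bases long. Which transcripts were expressed here was not tested.

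Counts on this family are open to copies elsewhere in the genome. In GENCODE release M21, 75 of the 76 genes shared at least 1 stretch of 50 bases with another annotated gene. In 36 genes over 50% of all 50-base stretches were shared. How the authors' counting treated such reads is not stated, so levels of single genes are uncertain. The 40 genes below that share had a median log2 difference between the groups of -0.44, and the 36 above it of -0.31. In addition, 29 genes hosted 56 snoRNAs, and 24 had a snoRNA on annotated exons. The median log2 difference was -0.29 in the 29 host genes and -0.44 in the other 47.

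The family's share of counts was lower in 2 of the 3 Slit2th libraries. The 74 genes summed here held 4.74%, 4.26% and 4.19% of all counts in replicates 1, 2 and 3 of Slit2fl/fl, against 4.36%, 2.97% and 3.08% in those of Slit2th. The groups overlapped, since Slit2th replicate 1 lay above Slit2fl/fl replicates 2 and 3. The mean was 4.40% ± 0.30 (SD, n = 3) in Slit2fl/fl and 3.47% ± 0.77 in Slit2th, a ratio of 0.79, given as a description without a test.

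Both subunits showed this pattern. The 45 large subunit genes held 2.97%, 2.40% and 2.33% of counts in Slit2fl/fl, against 2.54%, 1.76% and 1.83% in Slit2th. The 29 small subunit genes held 1.77%, 1.86% and 1.86% in Slit2fl/fl, against 1.81%, 1.22% and 1.26% in Slit2th. In each subunit Slit2th replicate 1 was within the range of the Slit2fl/fl libraries, and the other two Slit2th libraries were lower.

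**Figure D1:**
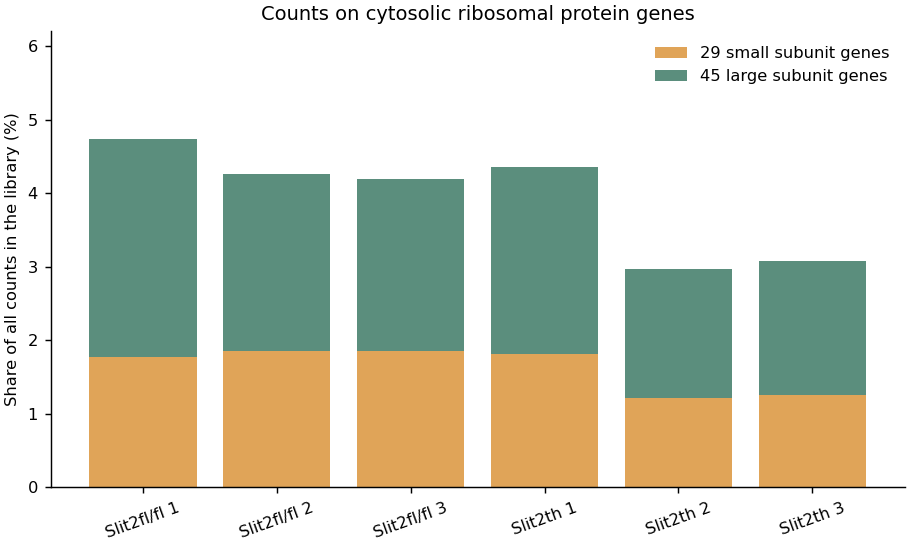
Share of all counts in each library, in percent, that fell on 29 small subunit genes and 45 large subunit genes, stacked, for 3 Slit2fl/fl and 3 Slit2th libraries. The stacks run from 4.74% in Slit2fl/fl replicate 1 to 2.97% in Slit2th replicate 2, and that of Slit2th replicate 1, at 4.36%, lies within the Slit2fl/fl range.

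Gene by gene, the groups were compared in edgeR by the quasi-likelihood test, adjusting p-values over all 12152 genes by Benjamini-Hochberg. At an adjusted p under 0.05, 0% of all genes passed and 0 of the 76 ribosomal protein genes did. At an unadjusted p under 0.05, 6 of the 76 (7.89%) were lower in Slit2th, close to the 6.78% of all genes that were, and 0 were higher, against 3.99% of all genes. DESeq2 on the same genes put 7 of the 76 (9.21%) lower at an unadjusted p under 0.05, against 5.98% of all genes with a p. It put 1 past the adjusted threshold (1.32%, against 0.437% of the 7776 genes with an adjusted p). By limma voom, 8 of the 76 (10.5%) were lower at an unadjusted p under 0.05, against 5.13% of all genes, and 0 passed adjustment. Every Slit2th library lay below every Slit2fl/fl library for 9 of the 76 (11.8%), against 9.72% of all genes, among them Rps26, Rpl37, Rpl3, Rpl35a, Rpl7a, Rpl34, Rpl6 and Rps25. The opposite order was seen for 0 of the 76, against 8.74% of all genes. The share of lower genes was thus near the background in this edgeR fit and above it by DESeq2 and limma voom, on 1 and 2 more genes.

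The direction was shared more widely than the calls. The log2 difference, Slit2th minus Slit2fl/fl, was negative for 64 of the 76 genes, 41 of 46 in the large and 23 of 30 in the small subunit. Over all 12152 genes tested, 6347 were negative. The family's median was -0.41 (large -0.44, small -0.33), beside -0.05 over all genes tested. It moved widely with single libraries: without Slit2fl/fl replicate 1 it was -0.06, and without Slit2th replicate 1 it was -0.78. With offsets corrected for transcript length the median was -0.07, with 44 of the 76 negative and the small subunit at 0.02, and with offsets corrected for GC content it was -0.16. Over all tested genes the log2 difference had a Spearman correlation of 0.16 with transcript length and of -0.34 with GC content. Within the family its Spearman correlation with transcript length was 0.04 and with GC content -0.22. The part of length and GC content in the family's median was not tested.

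**Figure D2:**
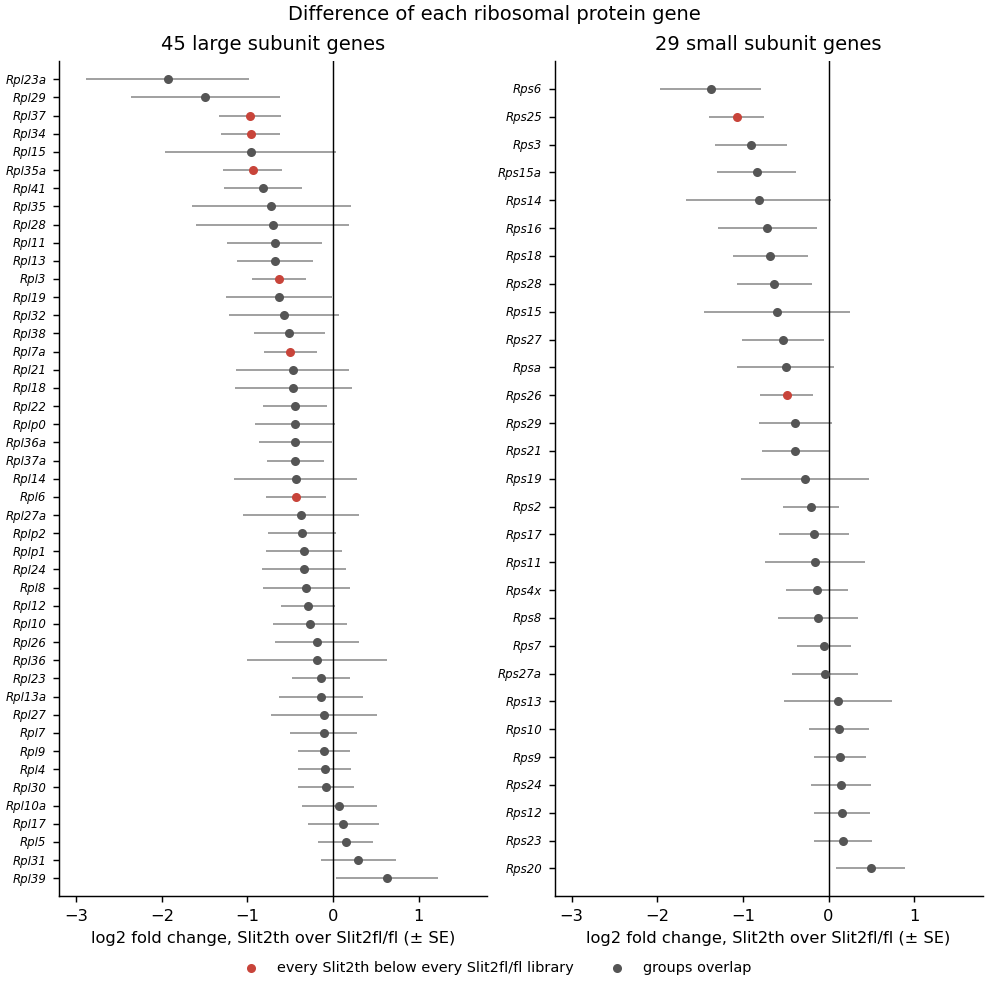
Log2 fold change of 45 large subunit genes (left) and 29 small subunit genes (right), Slit2th over Slit2fl/fl, with its standard error as a bar. Red points are the 8 of these genes whose Slit2th libraries all lie below the Slit2fl/fl libraries. Most genes lie between -1 and 0, and Rpl39 is the highest at 0.63.

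Rps25 encodes a protein of the small subunit head that some viral internal ribosome entry sites depend on (GRCm38 chr9:44407139-44410427, plus strand). It stood at 337, 352 and 491 CPM in Slit2fl/fl, against 196, 194 and 170 CPM in Slit2th. The Slit2th libraries lay close together and all below the Slit2fl/fl libraries. The log2 difference was -1.07 with a standard error of 0.32, with p at 0.00842 unadjusted and 0.422 after Benjamini-Hochberg adjustment in the edgeR quasi-likelihood test. Over 22 alternatives the difference ranged from -1.22 to -0.82. Exons of the antisense genes Ccdc84 and Trappc4 overlap its own, and without a stated strand setting their reads cannot be told apart.

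The large subunit genes Rpl34, Rpl35a and Rpl37 differed by about the same amount, 1.92-fold to 1.96-fold in their means. Rpl34 (chr3:130726831-130730398, minus strand) was at 460, 666 and 843 CPM in Slit2fl/fl, against 379, 329 and 301 CPM in Slit2th. Rpl35a (chr16:33056453-33060189, plus strand), one of the genes mutated in Diamond-Blackfan anaemia, was at 676, 904 and 1081 CPM in Slit2fl/fl, against 589, 409 and 388 CPM in Slit2th. Rpl37 (chr15:5116645-5119140, plus strand), whose protein binds 5.8S ribosomal RNA, was at 614, 996 and 964 CPM in Slit2fl/fl, against 576, 382 and 359 CPM in Slit2th. In all of them the groups did not overlap, and replicate 1 was the lowest library of Slit2fl/fl and the highest of Slit2th. The log2 differences were -0.96 ± 0.35 for Rpl34, -0.94 ± 0.35 for Rpl35a and -0.97 ± 0.36 for Rpl37 (± SE). Benjamini-Hochberg adjusted p from the edgeR quasi-likelihood test was 0.422, 0.429 and 0.429 in that order.

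Rps6, the small subunit protein phosphorylated by S6 kinase downstream of mTOR (chr4:86854660-86857412, minus strand), behaved differently across libraries. It was at 194, 62.9 and 99.5 CPM in Slit2fl/fl, against 84.7, 28.6 and 25.4 CPM in Slit2th. The groups overlapped, since Slit2th replicate 1 lay above Slit2fl/fl replicate 2, and replicate 1 was the highest library of each group. The log2 difference was -1.38 with a standard error of 0.59 (edgeR quasi-likelihood test, p 0.0435 unadjusted and 0.459 after Benjamini-Hochberg adjustment). Of its 50-base stretches 84.6% recur elsewhere in annotated genes.

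The highest positive values did not pass the unadjusted threshold in this edgeR comparison. Rpl39, whose protein lines the exit tunnel of the large subunit, was at 268, 1810 and 885 CPM in Slit2fl/fl, against 1080, 1743 and 1763 CPM in Slit2th, a log2 difference of 0.63 with a standard error of 0.60. Rps20, of the small subunit head, was at 424, 546 and 497 CPM in Slit2fl/fl, against 1077, 475 and 511 CPM in Slit2th (0.49, SE 0.40). Rpl31, near the tunnel's exit, was at 292, 294 and 335 CPM in Slit2fl/fl, against 649, 237 and 246 CPM in Slit2th (0.29, SE 0.44). For Rps20 and Rpl31 the highest library was Slit2th replicate 1, and without replicate 1 of both groups Rps20 was at -0.10 and Rpl31 at -0.40.

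**Figure D3:**
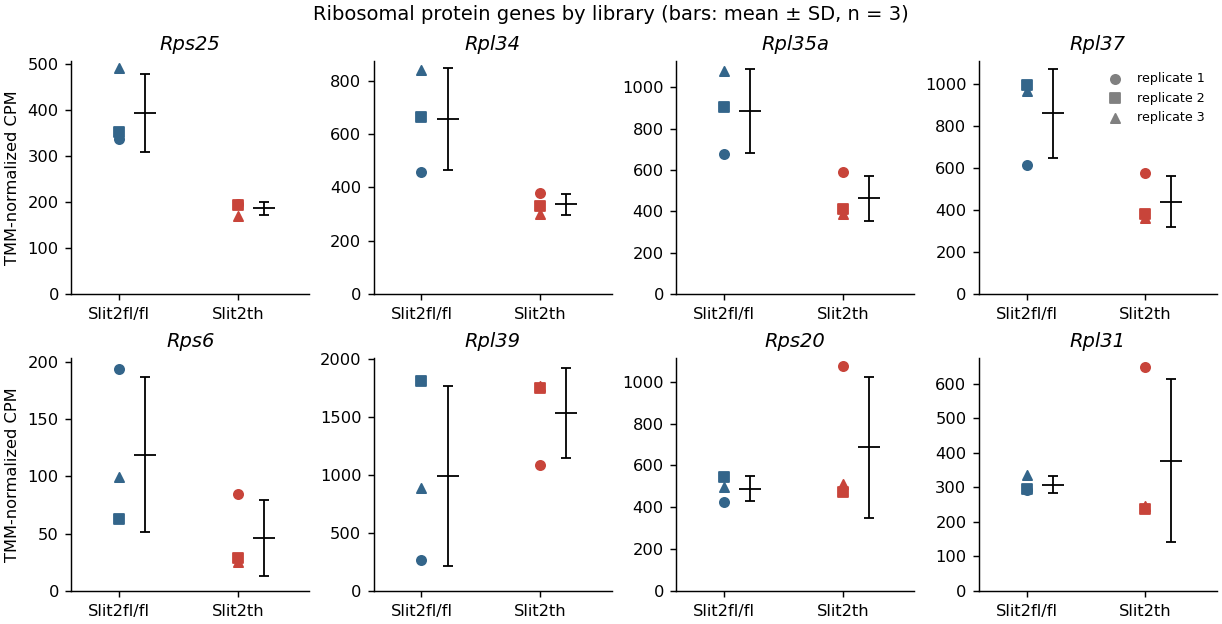
TMM-normalized CPM of 8 ribosomal protein genes in each library, with circles, squares and triangles for replicates 1, 2 and 3 and with the mean and SD of each group (n = 3) beside the points. The first 5 panels are genes lower in Slit2th at an unadjusted p under 0.05 and the last 3 those with the highest positive differences. Points of Rps25, Rpl34, Rpl35a and Rpl37 do not overlap between groups, and those of the other 4 genes do.

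Other members with well-known roles mostly showed small differences relative to their errors. The P-stalk genes Rplp0, Rplp1 and Rplp2, whose proteins call elongation factors to the ribosome, had log2 differences of -0.44, -0.34 and -0.36, with standard errors of 0.40 to 0.47. Rpl5 and Rpl11, which with 5S ribosomal RNA can bind Mdm2, were at 0.15 (SE 0.32) and -0.68 (SE 0.55). Rps19, the most often mutated gene of Diamond-Blackfan anaemia, was at -0.28 (SE 0.74), and Rpl38, which supports translation of Hox mRNAs in skeletal patterning, at -0.51 (SE 0.42). The X-linked Rps4x and Rpl10 were at -0.13 (SE 0.37) and -0.27 (SE 0.43), Rpsa, also named the laminin receptor, at -0.50 (SE 0.56), and Rpl22 at -0.45 (SE 0.38). Rpl3, at the peptidyl transferase centre, was at -0.63 (SE 0.31) with groups that did not overlap, at 363, 261 and 324 CPM in Slit2fl/fl against 199, 185 and 229 CPM in Slit2th. None of these passed the adjusted threshold, and the errors leave room for a difference in either direction for most of them.

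Replicate 1 stood apart from replicates 2 and 3 in both groups, and for many of these genes by more than the groups differed. Replicate 1 was above the mean of the other two on the log2 scale in both groups for 44 of the 76 genes, below it in both for 8, and on opposite sides for 24. The median of this difference was 0.55 for Slit2fl/fl and 0.91 for Slit2th, against -0.0017 and -0.17 over the tested genes with counts in every library. For 23 of the 76 genes (30.3%) replicate 1 was over 2-fold higher in both groups, which held for 885 of 10788 tested genes (8.20%). For 0 of the 76 was it over 2-fold lower in both, against 2.85% of the tested genes.

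Rpl15, a large subunit gene chosen after its values were seen, showed this most in Slit2fl/fl. It was at 863 CPM in Slit2fl/fl replicate 1 against 88.8 and 163 CPM in replicates 2 and 3, and at 462 CPM in Slit2th replicate 1 against 58.2 and 55.9 CPM. Rps14, of the small subunit platform, was at 3189, 531 and 1165 CPM in Slit2fl/fl, against 2119, 312 and 343 CPM in Slit2th. Rpl23a, at the tunnel exit where the signal recognition particle docks, was at 288, 36.3 and 63.1 CPM and 80.3, 11.9 and 11.3 CPM. In these genes replicate 1 of each group was the highest library of its group, and Slit2th replicate 1 exceeded Slit2fl/fl replicates 2 and 3.

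Some members ran the other way. Rps27 was at 508, 2029 and 1543 CPM in Slit2fl/fl, against 880, 940 and 993 CPM in Slit2th, and Rpl39 had the lowest value of each group in replicate 1. Rps15a was low in Slit2fl/fl replicate 1 and high in Slit2th replicate 1, at 1433, 3477 and 3912 CPM and 2310, 1323 and 1291 CPM. Across the 76 genes, the replicate 1 difference in Slit2fl/fl had a Pearson correlation of 0.77 (Spearman 0.75) with that in Slit2th. With the GC content of the transcript it had a Pearson correlation of 0.41 for Slit2fl/fl and 0.25 for Slit2th. These are descriptions across genes that share the same 6 libraries and are not independent.

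**Figure D4:**
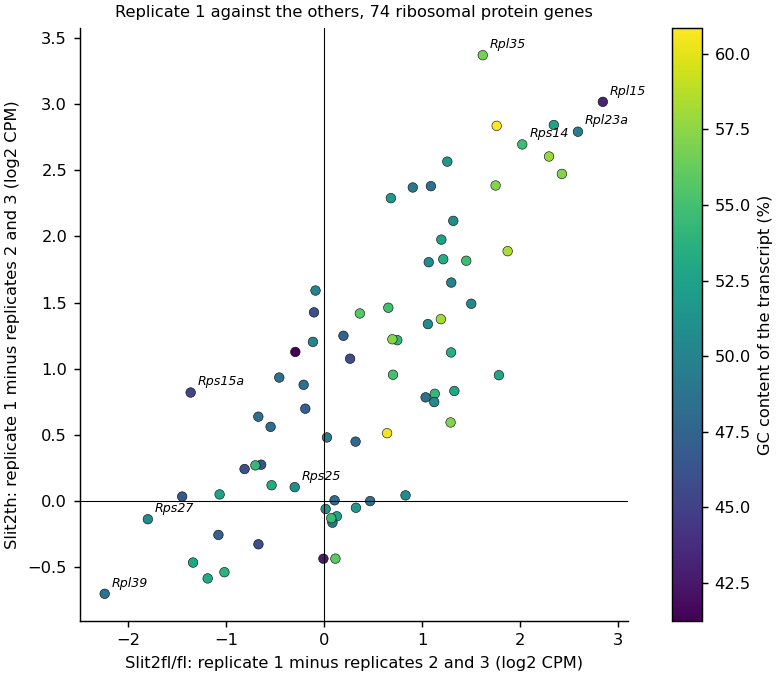
Replicate 1 minus the mean of replicates 2 and 3 (log2 CPM) in Slit2fl/fl (horizontal) and in Slit2th (vertical) for 74 ribosomal protein genes, coloured by the GC content of the transcript in percent. Most points lie in the upper right, where Rpl15 is the farthest right and Rpl35 the highest, and Rpl39 is the lowest in both directions.

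The comparison therefore depended on replicate 1. Without replicate 1 of both groups, with 2 libraries left in each, 26 of the 76 genes (34.2%) were lower in Slit2th at a Benjamini-Hochberg adjusted p under 0.05 in the edgeR quasi-likelihood test. Of all 11473 genes tested there, 2.52% were lower, and 0.767% were higher, among them 0 ribosomal protein genes. Genes with small p included Rps15a (log2 difference -1.51, adjusted p 0.000264), Rpl37 (-1.42, 0.000509), Rpl35a (-1.33, 0.00087), Rpl41 (-1.34, 0.00108), Rpl21 (-1.38, 0.00139) and Rpl34 (-1.27, 0.0017), with the adjusted p second in each pair. Rpl23a, Rpl35, Rps6, Rps25, Rpsa, Rps14 and Rps27 were among the others that passed. All 26 were lower, and 71 of the 76 had a negative difference, with a median of -0.57 beside -0.02 over all genes. Leaving out replicate 2 or replicate 3 of both groups gave 0 adjusted calls in the family. Whether replicate 1 or the others reflect the genotypes better was not tested.

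Related gene lists were read in the same way. Over all 12152 tested genes, 6347 had a negative difference. At an unadjusted p under 0.05 in edgeR, 6.78% of them were lower in Slit2th and 3.99% higher. The 76 tested nuclear genes of the mitochondrial ribosome had a median log2 difference of -0.41, with 54 negative, 8 lower and 0 higher at an unadjusted p under 0.05. Mrps18c, of its small subunit, was at 780, 797 and 1747 CPM in Slit2fl/fl, against 508, 247 and 187 CPM in Slit2th (log2 difference -1.82, SE 0.50, unadjusted p 0.00556). Mrpl33 (-0.71, SE 0.41) and Mrps21 (-1.43, SE 0.80) were the next most abundant of that list, and their groups overlapped. Of 15 cytosolic ribosomal protein genes outside the naming rule, 8 were tested, with a median of -0.30 and 2 lower. Rps27l was the most abundant, at 1493, 3003 and 4340 CPM in Slit2fl/fl, against 1199, 1510 and 1099 CPM in Slit2th (-1.21, SE 0.43, unadjusted p 0.0205), with overlapping groups. Rps3a1 (-0.19, SE 0.33) and Rpl22l1 (-0.35, SE 0.60) had small values for their errors.

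Translation factor lists had medians nearer to that of all tested genes. The 9 tested elongation factors had a median of -0.22, with 1 lower, and the 38 initiation factors a median of 0.05, with 1 lower and 0 higher. Eef1a1, the main elongation factor and itself a TOP mRNA, was at 2895, 3324 and 3216 CPM in Slit2fl/fl, against 3464, 3678 and 3481 CPM in Slit2th, a log2 difference of 0.17 (SE 0.31). Eef1b2 (-0.25, SE 0.34) and Eef2 (-0.01, SE 0.47) also stayed within their errors, as did the initiation factor genes Eif2s2 (-0.18, SE 0.45), Eif4g2 (0.18, SE 0.33) and Pabpc1 (0.12, SE 0.38). The other 21 tested TOP mRNAs had a median of 0.12 with 0 called in either direction, and Vim (0.35, SE 0.36) and Tpt1 (0.51, SE 0.40) were the most abundant among them. All of these medians are beside -0.05 for all tested genes, and the counts beside 6.78% lower and 3.99% higher.

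The 63 ribosome assembly factors had a median of -0.30, with 7 lower and 3 higher at an unadjusted p under 0.05. Of all tested genes, 6.78% were lower and 3.99% higher at that threshold. Every Slit2th library lay below the Slit2fl/fl libraries for 14 of the 63 and above for 4, against 9.72% and 8.74% of all genes. Dkc1, the pseudouridine synthase of H/ACA snoRNPs, was at 68.8, 183 and 217 CPM in Slit2fl/fl, against 423, 375 and 469 CPM in Slit2th (log2 difference 1.43, SE 0.45, unadjusted p 0.0102), and every Slit2th library lay above the Slit2fl/fl libraries. The other H/ACA proteins of the list did not share this. Nop10 was at -1.67 (SE 0.39) with every Slit2th library lower, Nhp2 at -0.01 (SE 0.82) and Gar1 at -0.30 (SE 0.55). Nop58, of the C/D snoRNPs, was at -0.79 (SE 0.36) with every Slit2th library lower, and Ncl, nucleolin, at -0.05 (SE 0.32). A list of 16 tested genes held regulators of this family together with genes linked to p53. Its median was -0.13, and 0 were called in either direction. The regulator Yy1 was at -0.12 (SE 0.33). Of those linked to p53, Mdm2 was at 0.33 (SE 0.36) and Cdkn1a at -0.68 (SE 0.63). None of these lists held a gene past the adjusted threshold.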

How the data were processed

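RNA was sequenced from 6 libraries (Illumina TruSeq kit). The authors aligned the reads with HISAT2 and deposited unnormalized counts, in whole reads, of 20173 genes. The paper names mm10 and the submitters' processing notes name GRCm39; the counting program, strand setting and annotation are not given in the sources used here. Groups came from GEO's labels, and 0 columns of per-sample values were left unused. No source says that the libraries came from separate cultures or animals, so the p-values measure only the spread between these libraries.

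Genes were joined to GENCODE M21 (GRCm38) for positions, principal transcript length and GC content (20159 of 20173 identifiers). The 12152 genes that reached 1 CPM in 3 or more libraries were normalized by TMM and compared with edgeR 4.0.16 (quasi-likelihood test, Benjamini-Hochberg adjusted p under 0.05, R 4.3.3). Standard errors come from the same fit, and the biological coefficient of variation was 50.4%. Exact permutation tests of log2 CPM were two-sided. Alternatives were other normalizations, DESeq2 1.42.0, limma voom 3.58.1, other filters, offsets corrected for length or GC content, a block for the replicate number, and fits without single libraries or replicate numbers.

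The members, gene lists and the rule for named genes were chosen with earlier results of these data known. The rule named the genes highest and lowest per kilobase, those with the smallest p and the largest differences of each subunit, well-known members and the 3 most abundant genes of each related list, with a few others added after their values were seen (Rpl15, Rpl41 and Rpl21 among them). Values of 2 of the 76 genes are not reported here, and shares of counts are over the other 74.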

Additional observations from a re-analysis of the deposited data

How the results depend on the processing

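The spread between replicates, depth and the small number of libraries limit these results, since 3 counts are up to 2.39 CPM and a difference has to be large to pass the adjusted threshold. Over 22 alternatives, the sign of the median difference did not change, and Rps25, Rps6, Rpl34, Rpl35a and Rpl37 stayed lower in Slit2th. DESeq2 and testing without a filter on low counts each called 1 member (1.32%) after adjustment. The shares beside these were 0.437% of the 7776 genes with an adjusted p in DESeq2 and 0.0403% of all genes tested without the filter. Correcting offsets for transcript length left 2 members lower at an unadjusted p under 0.05 (2.63%, against 5.79% of all genes). It put the median at -0.0655. Both groups number their replicates 1 to 3 in the labels, but no source says that a number marks a shared animal or day. Deviations from the group means correlated across genes at 0.29, 0.242 and 0.0795 for replicates 1, 2 and 3, so the numbers were not taken as pairs. Slit2fl/fl replicate 2 correlated best with Slit2th replicate 3 (0.252). Over the ribosomal protein genes alone these correlations were 0.765, 0.825 and 0.351, and replicate 2 of Slit2fl/fl correlated about as well with replicate 3 of Slit2th (0.826). With the replicate block, 20 members were at an unadjusted p under 0.05 in edgeR and 0 passed adjustment. Of these, 19 (25% of the family, against 7.58% of all genes) were lower and 1, Rpl39 (0.983), was higher. With GC-corrected offsets beside the replicate block 10 were, 9 of them lower (11.8%, against 6.16%), and Rpl39 was again the higher one.

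When libraries were left out, members at an unadjusted p under 0.05 numbered 1 to 50, with 13 without Slit2fl/fl replicate 1 (17.1%, against 4.34% of all genes lower) and 27 without Slit2th replicate 1 (35.5%, against 8.8%). The 50, without replicate 1 of both groups, were 65.8%, against 10.3%. All were lower except Rpl39, higher without Slit2fl/fl replicate 2. Adjusted calls ran from 0 to 26. The median ran from -0.775 to -0.0554. The ratio of the share of counts, Slit2th over Slit2fl/fl, ran from 0.689 to 0.846 for the family, from 0.698 to 0.862 for the large subunit and from 0.676 to 0.84 for the small subunit. Both other denominators moved these ratios by less than the spread between replicates.

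Signs turned for named members of small difference. With DESeq2 size factors Rps27a was at 0.00535, and in the DESeq2 test at 0.0052. With length-corrected offsets Rpl30 was at 0.289, Rps27a at 0.256, Rplp2 at 0.00346, Rps19 at 0.124, Rps4x at 0.149 and Rpl10 at 0.155. With GC-corrected offsets Rpl5 was at -0.119 (-0.0852 with the replicate block), Rps27a at 0.0258, Rplp1 at 0.0969, Rplp2 at 0.0165 and Rps19 at 0.303. The cause was not tested. With libraries left out, values ran for Rpl30 from -0.238 to 0.0417, for Rpl27a from -1.63 to 0.0797, for Rps14 from -2.31 to 0.15, for Rps23 from -0.0238 to 0.314 and for Rplp0 from -0.771 to 0.152. They ran for Rps19 from -1.54 to 0.558, for Rpl11 from -1.07 to 0.182, for Rpl10 from -0.575 to 0.204, for Rps29 from -0.698 to 0.0403 and for Rps10 from -0.0645 to 0.375. Values lay for Rpl5 from -0.0579 to 0.284, for Rps27a from -0.578 to 0.3, for Rpl31 from -0.397 to 0.596, for Rps4x from -0.563 to 0.111 and for Rps12 from -0.0556 to 0.366. The range for Rps20 was from -0.0958 to 0.775.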
